A study of Mus musculus with 12 samples.

Results

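The 7 genes described here, Lgi2, Hcn4, Shank2, Whrn, Cadps2, Chl1 and Sstr2, are best known from neurons or sensory cells. They were taken out of a table of 23284 genes because their counts differed between groups of these same libraries. Their differences between groups are therefore given as a description. Where it is said how many of them passed a threshold over all genes, that count follows from the choice and supports nothing. The tissue was the mandibular condylar fibrocartilage, the thin fibrous and cartilaginous cover of the lower jaw's joint head, with all of its cells, in female C57BL/6 mice. All animals had been ovariectomized at 16 weeks of age and carried a pellet for 1 week, until 17 weeks. The pellet held either 0.01 mg of 17β-estradiol (E2) for release over 60 days or placebo (Plb). Messenger RNA was sequenced from 3 libraries of estrogen receptor alpha knockout (ERalphaKO) mice under E2, 4 of ERalphaKO mice under placebo, 3 of wild-type (WT) mice under E2 and 2 of WT mice under placebo. The knockout allele is not given in the sources used here, and the labels do not say whether each library came from its own animal, so errors measure the spread between libraries. The comparisons ask what E2 changes in this tissue, and how that depends on estrogen receptor alpha.

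Estradiol acts largely through receptors that, once bound, attach to DNA and change the transcription of target genes, of which estrogen receptor alpha is the best studied. Of the 7 proteins, one is a secreted ligand (LGI2), one an ion channel (HCN4), another a G protein-coupled receptor (SSTR2), and one an adhesion molecule (CHL1). The remaining 3 work inside the cell, namely the scaffolds SHANK2 and whirlin (Whrn) and the vesicle-priming factor CADPS2. In neurons such proteins organise synapses, set firing rhythm, release neuropeptides and guide axons. The cell bodies of the sensory neurons that serve the jaw joint lie in the trigeminal ganglion, while their endings and the Schwann cells around them reach the joint tissues.

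To show the DNA at which these transcripts start, promoters are given from RefSeq on build GRCm38.p6, from 250 bases before to 50 bases after the start. Of the 7 genes, 6 had an entry in the promoter table used, all but Shank2. The reads were counted on another build, mm9, so these coordinates belong to the promoters only. Capitals mark a match to GGTCA, which is 1 arm of the estrogen response element, or to TGACGTCA, the cAMP response element bound by CREB, on either strand. Lgi2 and Hcn4 are shown as genes high in WT under E2, with and without such an arm, and Sstr2 as a gene low there. The stretches are Lgi2 at chr5:52566257-52566556 (minus strand), Hcn4 at chr9:58822699-58822998 (plus strand) and Sstr2 at chr11:113619077-113619376 (plus strand).
Lgi2: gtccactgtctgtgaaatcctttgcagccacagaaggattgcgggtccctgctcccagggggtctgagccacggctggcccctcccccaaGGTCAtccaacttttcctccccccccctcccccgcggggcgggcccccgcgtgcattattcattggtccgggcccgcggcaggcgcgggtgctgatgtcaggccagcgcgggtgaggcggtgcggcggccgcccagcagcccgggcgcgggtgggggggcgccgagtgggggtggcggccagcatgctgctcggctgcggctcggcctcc
Hcn4: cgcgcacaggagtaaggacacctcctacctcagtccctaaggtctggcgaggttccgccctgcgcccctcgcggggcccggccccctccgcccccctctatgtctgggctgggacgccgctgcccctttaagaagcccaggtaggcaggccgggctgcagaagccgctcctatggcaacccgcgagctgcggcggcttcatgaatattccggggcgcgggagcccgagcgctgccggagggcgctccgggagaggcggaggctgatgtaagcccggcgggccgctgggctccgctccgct
Sstr2: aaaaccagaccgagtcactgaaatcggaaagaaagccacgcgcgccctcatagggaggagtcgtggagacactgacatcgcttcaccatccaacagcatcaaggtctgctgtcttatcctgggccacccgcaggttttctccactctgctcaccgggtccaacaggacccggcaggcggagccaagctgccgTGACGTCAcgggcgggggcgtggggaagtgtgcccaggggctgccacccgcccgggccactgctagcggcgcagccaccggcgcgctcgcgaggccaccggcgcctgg

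The full estrogen response element, searched as GGTCA and TGACC with any 3 bases between them on both strands, was in none of the 6 promoters and in 0.07% of 32851 mouse promoters of this length. Its single arm GGTCA, which the full element contains, was in 40.5% of promoters and, among the 6 genes, in Lgi2 at -160 to -156 from the start. TGACGTCA was in 1.79% of promoters and, among the 6, in Sstr2 at -58 to -51. The GC box GGGCGG, a binding site of Sp1, was in 35.7% of promoters and in those of Lgi2, Hcn4, Whrn, Cadps2 and Sstr2, but not Chl1. TCAGCACC, the left arm of the element bound by REST, a repressor of neuronal genes, was in 1.65% of promoters and, among the 6, in Lgi2 on the opposite strand at -73 to -66. The AP-1 site TGANTCA, in 7.81% of promoters, had no match in the 6. None of these matches overlapped another, apart from the arm and the full element.

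Libraries held 9696434 to 28750636 counts, the fewest in ERalphaKO E2 replicate 2, and levels below are CPM, counts scaled to a common library total. Esr1, the gene of estrogen receptor alpha, stood at 4.55 to 5.78 CPM in ERalphaKO E2, 3.65 to 5.68 in ERalphaKO placebo, 8.52 to 12 in WT E2 and 14.2 to 17.5 in WT placebo, so every ERalphaKO library lay below every WT library and none was at 0. Of the 23284 genes, 14832 passed the filter on low counts, all 7 genes among them. Summed markers of the labelled tissue were high: the 8 fibrous zone markers, such as Col1a1 and Prg4, summed to 70189 to 106341 CPM and the 9 chondrocyte markers in the table to 3801 to 23174 CPM per library. Both lists were uneven, with Tnmd at a mean of 1.56 CPM, Matn1 at 0.236 and Matn3 at 2.02. Bone markers were high too. Osteoblast and osteocyte markers summed to 4010 to 10247 CPM per library, and osteoclast markers to 5075 to 7487 CPM.

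**Figure D1:**
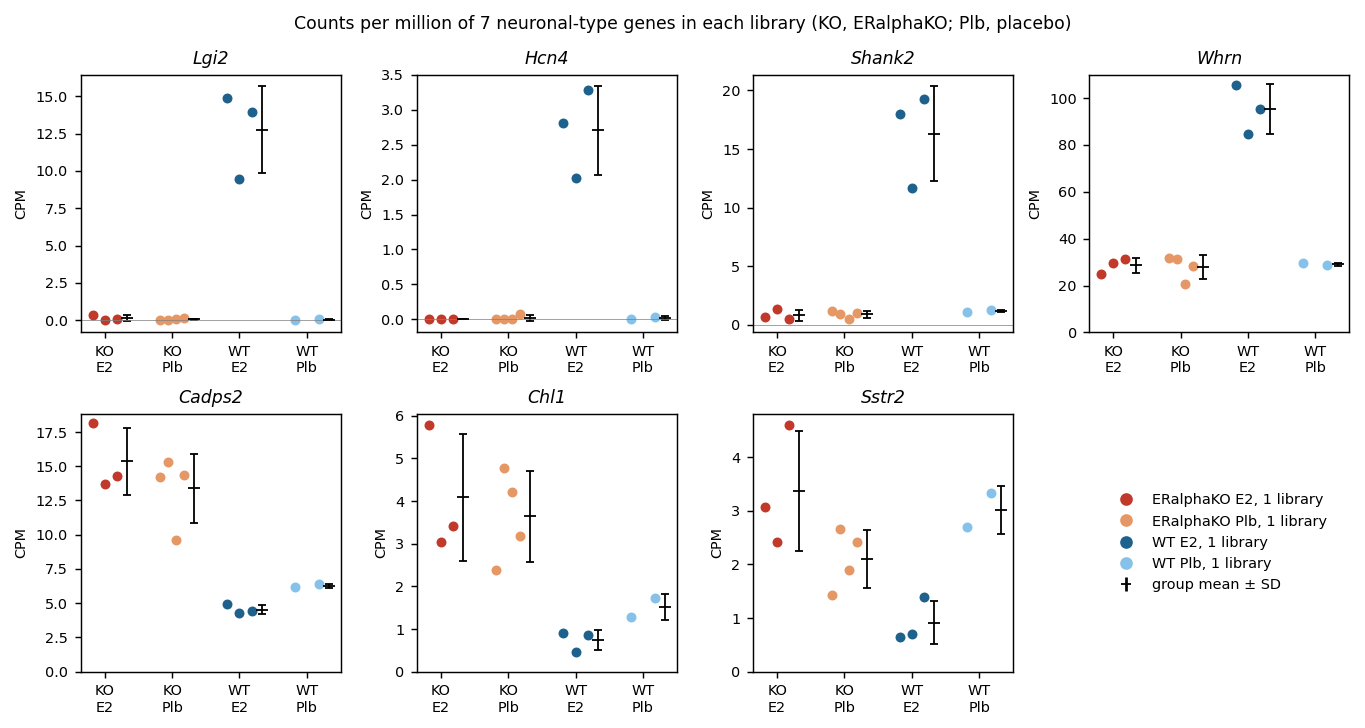
CPM (linear axes from 0) of the 7 genes in each of 12 libraries, 1 point per library, with the group mean ± SD at the right of each group. Lgi2, Hcn4, Shank2 and Whrn stand apart in the 3 WT E2 libraries, Cadps2 and Chl1 are higher in all 7 ERalphaKO libraries than in all 5 WT libraries, and Sstr2 is lowest in WT E2.

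Under E2 in WT mice, 4 of the 7 genes were higher and 3 lower than under placebo, with no overlap of the groups for any of the 7. Of all genes tested, 26.9% had no such overlap, 13.2% higher and 13.7% lower. At an edgeR adjusted p under 0.05 the 4 higher genes, Lgi2, Hcn4, Shank2 and Whrn, were among the 0.458% of genes called (0.371% higher and 0.0876% lower), and the 3 lower genes, Cadps2, Chl1 and Sstr2, were not. Since the genes were chosen for such differences, these counts carry no weight of their own. With WT placebo replicate 1 left out, or replicate 2, no gene of the 7 was called, and Hcn4 lost its call in 8 of 12 omissions of a single library. In bulk tissue, fewer cells of a type and less RNA per cell cannot be told apart.

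Lgi2 encodes a secreted protein that binds ADAM22-type receptors at synapses and is linked to epilepsy in dogs. It had 14.9, 9.46 and 13.9 CPM in WT E2 libraries, against 0 and 0.0733 in WT placebo. In ERalphaKO it had 0.361, 0 and 0.102 CPM under E2, against 0, 0.0451, 0.0775 and 0.121 under placebo. All 3 WT E2 libraries were far above the other 9, which ranged from no count to 6 counts. Over the groups, 770 counts in WT E2 stood against 2 in WT placebo, a ratio of 281 after scaling to library totals, with a counting interval from 77.6 to 2327. Between genotypes under E2, 8 counts in ERalphaKO stood against the 770 in WT, a level 72.4-fold lower (36.6 to 168). The ratio of E2 to placebo within ERalphaKO was 2.61 (0.795 to 9.14) and rested on 8 and 6 counts.

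Hcn4 encodes a hyperpolarization-activated cation channel, the pacemaker channel of the sinoatrial node that is also found in thalamic neurons. WT E2 libraries had 2.81, 2.02 and 3.28 CPM, and those of WT placebo 0 and 0.0366. No count was found in the 3 ERalphaKO E2 libraries, which allows up to 0.0657 CPM over that group, and ERalphaKO placebo libraries had 0, 0, 0 and 0.0805 CPM. Outside WT E2 the gene was thus close to undetected, with 3 counts in 9 libraries. The 163 counts of WT E2 against 1 of WT placebo gave a ratio of 119 with an interval from 21.1 to 4732. ERalphaKO E2 was at least 40.9-fold lower than WT E2, against a floor of 3 counts over the group. These intervals and floors cover counting error only.

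Shank2 encodes a large scaffold under glutamate receptors in the postsynaptic density. Its levels were 18, 11.7 and 19.3 CPM in WT E2, against 1.12 and 1.25 CPM in WT placebo. ERalphaKO libraries had 0.663, 1.37 and 0.460 CPM under E2, against 1.14, 0.902, 0.504 and 1.01 CPM under placebo. The WT E2 libraries were the high ones, and the other 9, from 0.460 to 1.37 CPM, overlapped between groups. The fitted log2 fold change was 3.78 ± 0.46 (SE) for E2 in WT, a fold of 13.7, and -4.37 ± 0.41 for ERalphaKO over WT under E2, a level 20.7-fold lower. Within ERalphaKO the E2 effect was -0.17 ± 0.39, and under placebo the genotype difference was -0.43 ± 0.40.

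Whrn encodes whirlin, a scaffold at the tips of the stereocilia of hair cells and in photoreceptors, whose loss causes deafness in the whirler mouse. It had at least 20.8 CPM in every library. WT E2 libraries had 105.7, 84.7 and 95.5 CPM, those of WT placebo 29.6 and 28.7 CPM. ERalphaKO libraries had 24.9, 29.7 and 31.3 CPM under E2, against 31.5, 31.2, 20.8 and 28.3 under placebo. The 9 libraries outside WT E2 overlapped and spanned 20.8 to 31.5 CPM. The log2 fold change of E2 over placebo in WT was 1.71 ± 0.18, a fold of 3.27, and that of ERalphaKO over WT under E2 was -1.74 ± 0.15. Within ERalphaKO the E2 effect was 0.03 ± 0.14, and under placebo the genotype difference was -0.06 ± 0.16.

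Among the 3 WT E2 libraries, replicate 2 had the lowest level of all 4 genes. Skeletal muscle and granulocyte markers varied widely between libraries. Summed over 17 muscle markers, libraries held 297 to 1598 CPM in WT E2 and 15.0 to 3337 CPM in WT placebo. The 10 granulocyte markers summed to 2.73 to 1134 CPM in WT E2 and 67.7 to 842 CPM in WT placebo, so both ranges overlapped. The 8 fibrous zone markers did not, with 72594 to 80113 CPM in WT E2 against 99307 to 103818 CPM in WT placebo. Most of that sum came from Col1a1 and Col1a2, at means of 36490 and 42845 CPM over all libraries. By mean log2 CPM the fibrous zone overlapped, at 8.89 to 9.26 in WT E2 against 9.25 to 9.30 in WT placebo. Of 16 marker lists, 6 had summed levels that did not overlap between WT E2 and WT placebo. By mean log2 CPM 4 lists did not overlap, and of the 6 only adipocyte markers were among them. Besides the fibrous zone, adipocyte markers summed to 3.86 to 12.7 CPM in WT E2 against 17.4 to 81.3 CPM in WT placebo, and smooth muscle and pericyte markers to 966 to 1152 CPM in WT E2 against 1277 to 1380 CPM in WT placebo. Osteoclast markers were just below, at 5316 to 6532 CPM in WT E2 against 6534 to 7042 CPM in WT placebo. Osteoblast and osteocyte markers were higher, at 6193 to 10247 CPM in WT E2 against 5513 to 5536 CPM in WT placebo. Epithelial markers were higher in WT E2 too. By mean log2 CPM, macrophage markers stood at 5.31 to 5.96 in WT E2 against 4.96 to 5.26 in WT placebo. The part of these differences in the results was not tested.

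In the ERalphaKO mice, E2 and placebo libraries overlapped for every one of the 7 genes, where 5.67% of all genes showed no overlap. At the same threshold edgeR called 0% of all genes here, 846 of them having an unadjusted p under 0.05, and DESeq2 called 5 genes, none of the 7. For Lgi2, Hcn4, Shank2 and Whrn, all ERalphaKO E2 libraries were below all WT E2 libraries, while ERalphaKO placebo and WT placebo libraries overlapped. E2 in ERalphaKO and the genotype comparison under E2 share their ERalphaKO libraries, so the values stand side by side and are not independent of each other.

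Cadps2 and Chl1 followed the genotype under both treatments. CADPS2 primes dense-core vesicles, which carry neuropeptides and neurotrophins, for release. Cadps2 had 18.1, 13.7 and 14.3 CPM in ERalphaKO E2, against 4.92, 4.28 and 4.4 CPM in WT E2. Under placebo it had 14.2, 15.3, 9.65 and 14.4 CPM in ERalphaKO, against 6.16 and 6.38 CPM in WT. Every ERalphaKO library was above every WT library, the lowest being ERalphaKO placebo replicate 3. ERalphaKO over WT gave a log2 fold change of 1.76 ± 0.18 under E2, a fold of 3.39, and 1.09 ± 0.20 under placebo, a fold of 2.13. E2 over placebo was -0.47 ± 0.20 in WT, whose libraries did not overlap, and 0.20 ± 0.16 in ERalphaKO, whose libraries did.

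CHL1, the close homolog of the adhesion molecule L1, promotes neurite outgrowth and is also made by glia. Chl1 had 5.78, 3.05 and 3.43 CPM in ERalphaKO E2, against 0.903, 0.471 and 0.871 in WT E2. Under placebo the levels were 2.39, 4.78, 4.22 and 3.18 CPM in ERalphaKO, against 1.29 and 1.72 in WT. Again no ERalphaKO library reached down to the WT range, with coefficients of variation of 36.3% in ERalphaKO E2 and 29.3% in ERalphaKO placebo, against 32.2% in WT E2 and 20.2% in WT placebo. The log2 fold change of ERalphaKO over WT was 2.45 ± 0.38 under E2, a fold of 5.46, and 1.27 ± 0.39 under placebo. For E2 over placebo it was -1.01 ± 0.41 in WT and 0.17 ± 0.32 in ERalphaKO.

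Sstr2 encodes a receptor for somatostatin, a peptide that inhibits hormone release, neuronal firing and pain fibres, and its pattern matched neither set. It had 3.07, 2.42 and 4.60 CPM in ERalphaKO E2, 1.44, 2.66, 1.90 and 2.41 in ERalphaKO placebo, 0.652, 0.706 and 1.38 in WT E2, and 2.70 and 3.33 in WT placebo. By group mean the order from high to low was ERalphaKO E2, WT placebo, ERalphaKO placebo and WT E2. The first pair overlapped, as did both ERalphaKO groups, while WT E2 lay below all other libraries. For E2 over placebo the log2 fold change was -1.72 ± 0.40 in WT, a level 3.30-fold lower, and 0.68 ± 0.33 in ERalphaKO. ERalphaKO over WT stood at 1.89 ± 0.37 under E2, a fold of 3.70, and at -0.52 ± 0.36 under placebo, so the sign differed between treatments.

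Across the genotype comparisons, all 7 genes were called under E2 and none overlapped between ERalphaKO and WT, 3 being higher and 4 lower. Of all genes, 1.1% were called (0.452% higher and 0.647% lower) and 15.9% did not overlap (6.97% higher and 8.94% lower). Under placebo no gene of the 7 was called, with 0.0135% of all genes called, and Cadps2, Chl1 and Sstr2 did not overlap between genotypes, where 21.1% of all genes did not. DESeq2 called Cadps2 under placebo and Sstr2 for E2 in WT, besides the genes named. For the interaction, that is how far the response to E2 differed with genotype, edgeR called 0.0539% of all genes and Whrn of the 7, a call lost in 10 of 12 omissions of a single library. DESeq2 called Lgi2, Shank2, Whrn and Sstr2 there. In every comparison DESeq2 also called more of all genes than edgeR, with counts given below under the dependence on processing. The edgeR shares given here thus do not apply to the DESeq2 calls. Skeletal muscle markers also separated the E2 groups, at 18.3 to 73.6 CPM in ERalphaKO against 297 to 1598 CPM in WT. Chondrocyte markers did so too, at 3801 to 7169 CPM in ERalphaKO against 8422 to 23174 CPM in WT, and 5 of the 16 lists did not overlap between ERalphaKO E2 and WT E2 by sum. The others were fibrous zone markers at 98994 to 106341 CPM in ERalphaKO against 72594 to 80113 CPM in WT, osteoblast and osteocyte markers at 5367 to 5700 CPM in ERalphaKO against 6193 to 10247 CPM in WT, and erythroid markers at 60.2 to 143 CPM in ERalphaKO against 21.7 to 57.1 CPM in WT. By mean log2 CPM only skeletal muscle markers of these 5 lists stayed separate. Macrophage markers were separate by that measure too, at 4.95 to 5.14 in ERalphaKO E2 against 5.31 to 5.96 in WT E2. Under placebo 3 lists did not overlap by sum, fibrous zone, smooth muscle and lymphocyte markers. Lymphocyte markers stood at 81.7 to 199 CPM in ERalphaKO against 10.4 to 14.3 CPM in WT. By mean log2 CPM smooth muscle markers overlapped under placebo. The part of all these in the genotype differences was not tested. ERalphaKO E2 replicate 1 had the highest Cadps2 and Chl1 of its group and, at 6872 CPM, the highest sum of granulocyte markers there. Without it, the values of Cadps2 and Chl1 for genotype under E2 kept their sign, within the ranges of 1.62 to 1.83 and 2.11 to 2.61 over all settings, but Chl1 and Sstr2 were no longer called. Sstr2 lost its call in 8 of 12 omissions of a single library and Chl1 in 1, whereas the other 5 genes lost theirs in 0. ERalphaKO placebo replicate 3 had the lowest Shank2, Whrn and Cadps2 of its group and the highest muscle and granulocyte sums of all, 7951 and 16872 CPM.

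**Figure D2:**
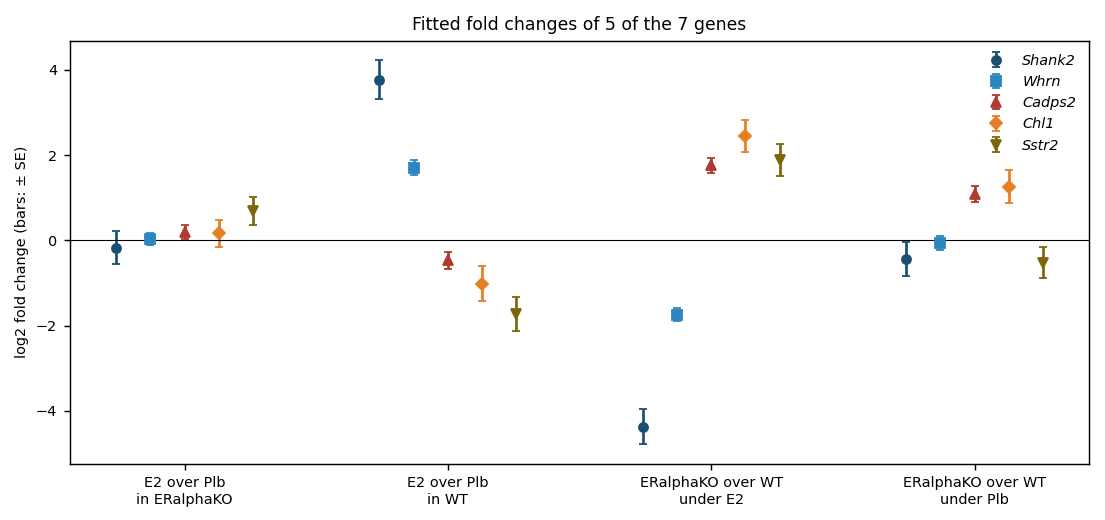
Fitted log2 fold changes with SE for 5 of the 7 genes in 4 comparisons, E2 over placebo within each genotype and ERalphaKO over WT within each treatment. Shank2 and Whrn depart from 0 for E2 in WT (3.78 and 1.71) and for genotype under E2 (-4.37 and -1.74), Cadps2 and Chl1 are above 0 in both genotype comparisons, and Sstr2 changes sign. Lgi2 and Hcn4 are left out because groups with 0 to 8 counts give no reliable fitted fold.

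The authors' deposited table gave the same signs for all 7 genes in WT E2 over WT placebo. Its log2 fold changes were 5.42 for Lgi2, 3.57 for Hcn4, 3.39 for Shank2, 1.68 for Whrn, -0.44 for Cadps2, -0.78 for Chl1 and -1.39 for Sstr2. For Shank2, Whrn, Cadps2, Chl1 and Sstr2 these values were all nearer to 0 than the fits above.

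Likeness of pattern over the 12 libraries was measured as the mean absolute difference of standardized log2 CPM, where 0 is an identical profile and the median over all genes was 1.09 to 1.14 for the 7. Lgi2, Hcn4, Shank2 and Whrn were 0.155 to 0.300 from each other. Cadps2 and Chl1 were 0.302 apart, and Sstr2 was 0.705 from Cadps2 and 0.642 from Chl1. Between both sets the distances were 1.49 to 1.58. The genes were chosen for group differences in these same libraries, so these distances follow in part from the choice. The gene nearest to Lgi2 was Greb1, a widely used estrogen receptor target in breast and uterus, at 0.105. Greb1 had 22.9 ± 4.81 CPM in WT E2 (SD, n = 3), against 0.187 ± 0.0984 in WT placebo (n = 2), and 0.334 ± 0.140 in ERalphaKO E2 (n = 3), against 0.164 ± 0.0351 in ERalphaKO placebo (n = 4). Next to Lgi2 came Hcn4 and the homeobox gene Evx1. Nearest to Hcn4 were Ripk4, Evx1 and Zfp804a, nearest to Shank2 were Ripk4, Whrn and Sftpa1, and nearest to Whrn were Evx1, Shank2 and Fam78b. For Cadps2 they were Serpina12, Frmd3 and Klk4 (0.206 to 0.270), for Chl1 Apitd1, Fmo1 and Dtx4 (0.204 to 0.279), and for Sstr2 Bai1, Tmem165 and Msln (0.269 to 0.361). All these profiles share the same 12 libraries and their depths, and a contrast of 3 libraries against 9 dominates the first 4. Evx1 had 32 counts in WT E2 and 0 in each other group. Zfp804a had 55 counts in WT E2, 1 in WT placebo and 0 in both ERalphaKO groups. Like Hcn4, these genes passed the filter through WT E2 only, so their short distances follow in part from the floor elsewhere.

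The relatives and partners of the 7 proteins made up 82 genes in 7 lists, of which 57 were tested. These lists were drawn up with earlier results of these data known, so they are no independent check. For E2 in WT edgeR called 0 of 57 relatives, DESeq2 also called 0, and 2 (3.51%) passed an unadjusted p of 0.05, against 8.14% of all genes. The median log2 fold change was -0.11, against -0.0043 over all genes. In ERalphaKO the E2 comparison gave 0 called by either tool, 1 (1.75%) at an unadjusted p under 0.05 against 5.7% of all genes, and a median of 0.05. For genotype under placebo both tools called 0, 5 (8.77%) had an unadjusted p under 0.05 against 8.93% of all genes, and the median was -0.09. For genotype under E2 both tools called 1 (1.75%, against 1.1% of all genes by edgeR), Ank3. There 8 (14%) had an unadjusted p under 0.05, against 11.5% of all genes, and the median was 0.02. For the interaction both tools called 0 relatives, and 1 (1.75%) had an unadjusted p under 0.05, against 6.78% of all genes.

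**Figure D3:**
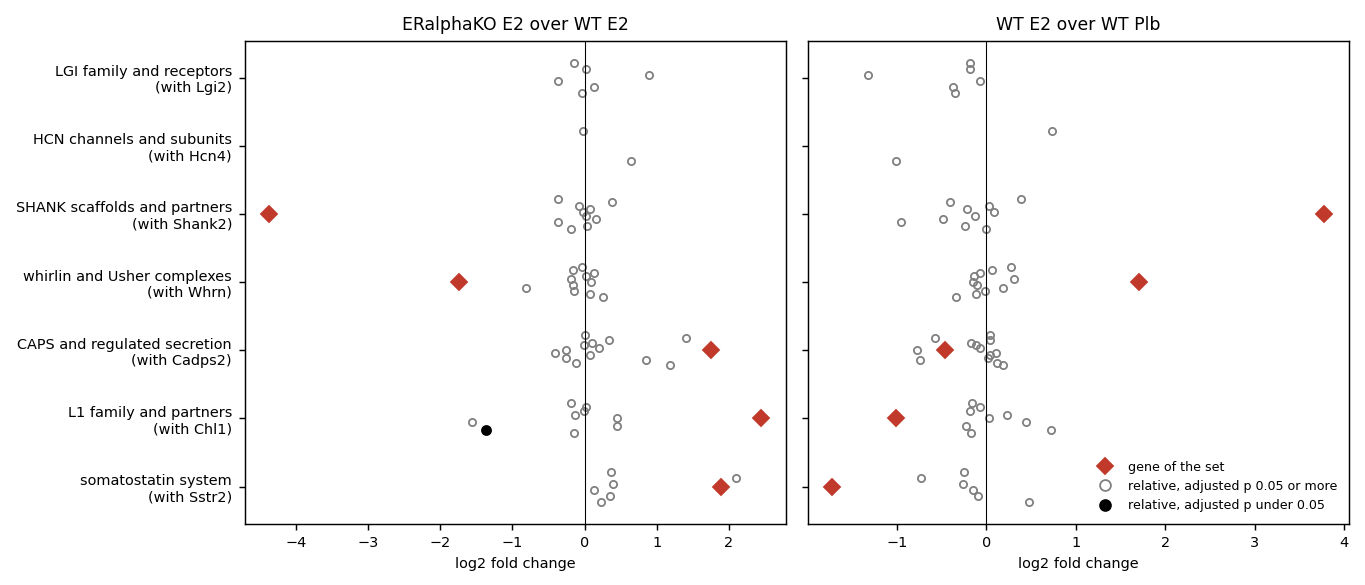
Log2 fold changes of the 57 tested relatives, grouped by the gene they belong with, for ERalphaKO E2 over WT E2 on the left and WT E2 over WT placebo on the right. Diamonds show Shank2, Whrn, Cadps2, Chl1 and Sstr2 themselves, without Lgi2 and Hcn4, and the single filled circle is Ank3 at -1.37. The median of the circles is 0.02 on the left and -0.11 on the right.

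Of the secreted LGI family, 6 relatives were tested and none called. Lgi4, which Schwann cells use to myelinate, averaged 12.6 CPM in ERalphaKO E2, 12 in ERalphaKO placebo, 13.9 in WT E2 and 15.8 in WT placebo, and its log2 fold change for E2 in WT was -0.19 (adjusted p = 0.89). Lgi1 had 0.201 CPM in WT E2 and 0.495 CPM in WT placebo, and Lgi3 had 2.39 CPM in WT E2 and 2.71 CPM in WT placebo. Adam22, a receptor of LGI proteins, averaged 8.01 CPM in ERalphaKO E2, 7.03 in ERalphaKO placebo, 7.34 in WT E2 and 9.47 in WT placebo. Its log2 fold change for E2 in WT was -0.37 (adjusted p = 0.71).

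For the pacemaker channels, 2 of 5 relatives passed the filter. Hcn2 averaged 0.781 CPM in WT E2 against 1.58 CPM in WT placebo (log2 fold change -1.01, adjusted p = 0.53), the opposite sign to Hcn4. Hcn3 averaged 0.514 CPM in WT E2 against 0.315 CPM in WT placebo (0.73, adjusted p = 0.82).

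Of 11 genes around the SHANK scaffolds, 10 were tested and none called. Both paralogues of Shank2 were present in every library. Shank1 averaged 20.0 CPM in WT E2 against 26.4 in WT placebo (log2 fold change -0.40, adjusted p = 0.72), and Shank3 averaged 33 in WT E2 against 25.3 in WT placebo (0.38, adjusted p = 0.62). Cttn, the actin-binding cortactin that SHANK proteins hold, and Dlgap4, of the family that ties SHANK to receptors, had the highest CPM of this list, without regard to gene length. Cttn had a log2 fold change of -0.23 and Dlgap4 one of -0.13 for E2 in WT, neither past the threshold.

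Whirlin works with myosins and G-protein regulators, and 11 of 17 such genes were tested, none of them called. Gnai3, which sets hair bundle shape and polarity, averaged 217 CPM in WT E2 against 240 CPM in WT placebo (log2 fold change -0.14, adjusted p = 0.80). Gpsm2, its binding partner at the stereocilia tips, stood at 87.5 CPM in WT E2 against 96.5 CPM in WT placebo (-0.14, adjusted p = 0.91). Named after their values were seen, Eps8, an actin regulator carried with whirlin to the tips, averaged 22.8 CPM in WT E2 against 23.0 CPM in WT placebo, and Myo15, the myosin that carries whirlin, had 48 counts in 12 libraries.

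The list of regulated secretion held 23 genes, 13 of them tested and none called in any comparison. Cpe and Pam, which process and amidate peptide hormones, averaged 765 and 571 CPM in ERalphaKO E2, against 834 and 543 CPM in WT E2. Cadps, the paralogue of Cadps2 found in neurons, had 69 counts over the 12 libraries and was not tested. Snap25 and Chga, the defining genes of exocytosis at synapses and of dense-core granules, had 2 counts each in all 12 libraries and were named after their values were seen.

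Around Chl1, 9 of 10 L1-family genes and partners were tested. Ank3, which encodes ankyrin-G, the anchor of L1-type molecules and sodium channels at the axon initial segment, was lower in ERalphaKO than in WT under E2. It had 11.9, 10.8 and 13.7 CPM in ERalphaKO E2, against 37.1, 35.8 and 21.3 CPM in WT E2, without overlap. Its log2 fold change was -1.37 ± 0.21 (adjusted p = 0.0119), while that of Chl1 in the same comparison was positive. Without ERalphaKO E2 replicate 1 or without WT E2 replicate 1 the call was lost, with adjusted p values up to 0.0691 and log2 fold changes between -1.58 and -1.23. For E2 over placebo its log2 fold change was -0.35 in ERalphaKO and 0.72 in WT, neither past the threshold, and the interaction was -1.07 (adjusted p = 0.46). L1cam had a log2 fold change of 0.45, Nrcam 0.45 and Nfasc -1.55 for genotype under E2, all with adjusted p of 0.43 to 0.73.

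In the somatostatin system 6 of 10 genes were tested and none called. All 6 had positive values for genotype under E2, with a median of 0.35, where 7297 of all 14832 genes tested were positive. Of the 6, 3 (50%) had an unadjusted p under 0.05, against 11.5% of all genes. Gnai2 and Gnao1, subunits of the inhibitory G proteins through which somatostatin receptors signal, had log2 fold changes of 0.13 (adjusted p = 0.69) and 0.39 (adjusted p = 0.36). Sstr1 averaged 0.452 CPM in ERalphaKO E2 against 0.101 CPM in WT E2, on 20 and 6 counts (2.10, adjusted p = 0.31). Sstr3 averaged 0.731 CPM in ERalphaKO E2 against 0.539 CPM in WT E2 (0.36, adjusted p = 0.85). Sstr4 had 24 counts in the 12 libraries and Sstr5 had 0. The ligand genes, named after their values were seen, were near absent too, with 1 count of Sst and 19 of Cort in all.

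Beyond the relatives, 6 lists of neuronal and Schwann cell genes with 241 entries asked whether neuronal-type transcripts changed more broadly, and 162 were tested. For E2 in WT edgeR called 0, with 26 (16%) at an unadjusted p under 0.05 against 8.14% of all genes, a median log2 fold change of -0.07, and 3 called by DESeq2, namely Ntn1, Ntn4 and Sema4b. For E2 in ERalphaKO both tools called 0, with 11 (6.79%) at an unadjusted p under 0.05 against 5.7% of all genes. For genotype under placebo edgeR called 0, with 15 (9.26%) at an unadjusted p under 0.05 against 8.93% of all genes, and DESeq2 called 1, Cacna1e. For genotype under E2 edgeR called 5 (3.09%, against 1.1% of all genes), 4 higher and 1 lower, while DESeq2 called 15. Here 33 (20.4%) had an unadjusted p under 0.05, against 11.5% of all genes, and the median was 0.03, against -0.0031 over all genes. The interaction gave 0 by either tool and 15 (9.26%) at an unadjusted p under 0.05, against 6.78% of all genes.

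Of the 43 voltage-gated channel genes tested, 2 rose in ERalphaKO over WT under E2, against 0.452% of all genes. By sign 17 were positive and 26 negative, with a median log2 fold change of -0.25, and 12 (27.9%) had an unadjusted p under 0.05, against 11.5% of all genes. Named after their values were seen, Scn4a and Cacna1s, known from skeletal muscle, are on this list. Over all libraries they ranged from 0 to 10.9 and from 0.12 to 49.8 CPM. Summed muscle markers were 18.3 to 73.6 CPM in ERalphaKO E2 against 297 to 1598 CPM in WT E2. The part of muscle in these channel values was not tested. Cacna1h, a T-type calcium channel pore, had 2.53, 1.58 and 0.971 CPM in ERalphaKO E2, against 0.251, 0.141 and 0.461 CPM in WT E2, a log2 fold change of 2.56 ± 0.52 (adjusted p = 0.0467). Cacna2d3, an auxiliary calcium channel subunit, had 10.1, 8.41 and 8.84 CPM in ERalphaKO E2, against 2.76, 3.11 and 5.48 CPM in WT E2, with 1.27 ± 0.25 (adjusted p = 0.0414). The groups of neither gene overlapped. Cacna1h kept its call in 1 and Cacna2d3 in 2 of 12 omissions of a single library.

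Among 29 synapse genes tested, Cplx2, a complexin that clamps and then promotes vesicle fusion, was the 1 called. It had 36.1, 32.1 and 34.0 CPM in ERalphaKO E2, against 21.1, 23.7 and 20.1 CPM in WT E2, and rose by 0.66 ± 0.12 on the log2 scale (adjusted p = 0.0329). Of 61 axon guidance and adhesion genes tested, Ntn4, a laminin-related netrin of basement membranes, fell. Its levels were 26.3, 36.2 and 23.7 CPM in ERalphaKO E2, against 50.5, 49.6 and 71.0 CPM in WT E2, a log2 fold change of -1.0 ± 0.20 (adjusted p = 0.0490). Both pairs of groups were separate, and with single libraries left out in turn Cplx2 kept its call in 5 and Ntn4 in 4 of 12. Of 9 neuropeptide receptor genes tested edgeR called none in any comparison. For E2 in WT, 5 (55.6%) had an unadjusted p under 0.05, against 8.14% of all genes. There 3 values were positive and 6 negative, with a median log2 fold change of -0.51. For the interaction 3 (33.3%) had an unadjusted p under 0.05, against 6.78% of all genes. In the genotype comparison under E2 this held for 2 (22.2%), against 11.5%. Galr2, a galanin receptor, averaged 23.5 CPM in ERalphaKO E2 against 27.4 CPM in WT E2, and Calcrl, the receptor component for CGRP and adrenomedullin, averaged 22.4 CPM in ERalphaKO E2 against 25.4 CPM in WT E2.

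Markers of neurons and Schwann cells show what nerve tissue the libraries could hold. The 16 neuron markers in the table, of 17 listed, summed to 69.4 to 84.3 CPM in ERalphaKO E2, 59.7 to 82.0 in ERalphaKO placebo, 68.5 to 79.9 in WT E2 and 78.0 to 86.1 in WT placebo. None of the 9 tested was called. By this sum the groups overlapped in all 4 comparisons, but most of it came from Eno2 and Uchl1, enzymes that other cells also make, at means of 32.7 and 17.9 CPM over all libraries. By mean log2 CPM, which weights the 9 tested markers equally, the libraries did not overlap in any of the 4 comparisons, at 1.73 to 1.91 in ERalphaKO E2, 1.28 to 1.63 in ERalphaKO placebo, 1.35 to 1.70 in WT E2 and 1.80 to 1.85 in WT placebo. This mean was thus higher in ERalphaKO E2 than in WT E2 and lower in WT E2 than in WT placebo, on the side of Cadps2, Chl1 and Sstr2. Under placebo the mean was lower in ERalphaKO than in WT, as Sstr2 was, and opposite to Cadps2 and Chl1. Single markers went both ways, 6 positive and 3 negative for genotype under E2, and 2 positive and 7 negative for E2 in WT. An unadjusted p under 0.05 was reached by 0 of 9 for genotype under E2 and by 1 of 9 for E2 in WT. Of the 16 marker lists, 4 did not overlap by mean log2 CPM for genotype under E2, and 4 for E2 in WT. The part of neuron markers in the results was not tested. The list was uneven. Over the 12 libraries Isl1 and Nefl had 2 counts each, Nefm 4, Elavl4 5, Calca 13, Elavl3 15, Gap43 53 and Nefh 94, while Rbfox3 had 161, Prph 715, Stmn2 1118, Tac1 1438 and Tubb3 2104. The 11 Schwann cell markers summed to 266 to 334 CPM in ERalphaKO E2, 264 to 316 in ERalphaKO placebo, 285 to 299 in WT E2 and 288 to 292 in WT placebo, mostly from Pmp22, which fibroblasts also express. Of these 11, Sox10, the transcription factor that defines the lineage, rose in ERalphaKO over WT under E2, from few counts. It had 16, 10 and 11 counts in ERalphaKO E2 (0.964, 1.05 and 0.562 CPM), against 3, 2 and 1 counts in WT E2 (0.151, 0.0941 and 0.0512 CPM), a log2 fold change of 3.02 ± 0.47 (adjusted p = 0.0129). The call was lost without ERalphaKO E2 replicate 1 or WT E2 replicate 3. Mean log2 CPM over the Schwann markers was 1.83 to 2.24 in ERalphaKO E2 against 1.24 to 1.71 in WT E2, on the same side as Cadps2, Chl1 and Sstr2 and opposite to Lgi2, Hcn4, Shank2 and Whrn, and its part in these differences was not tested.

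**Figure D4:**
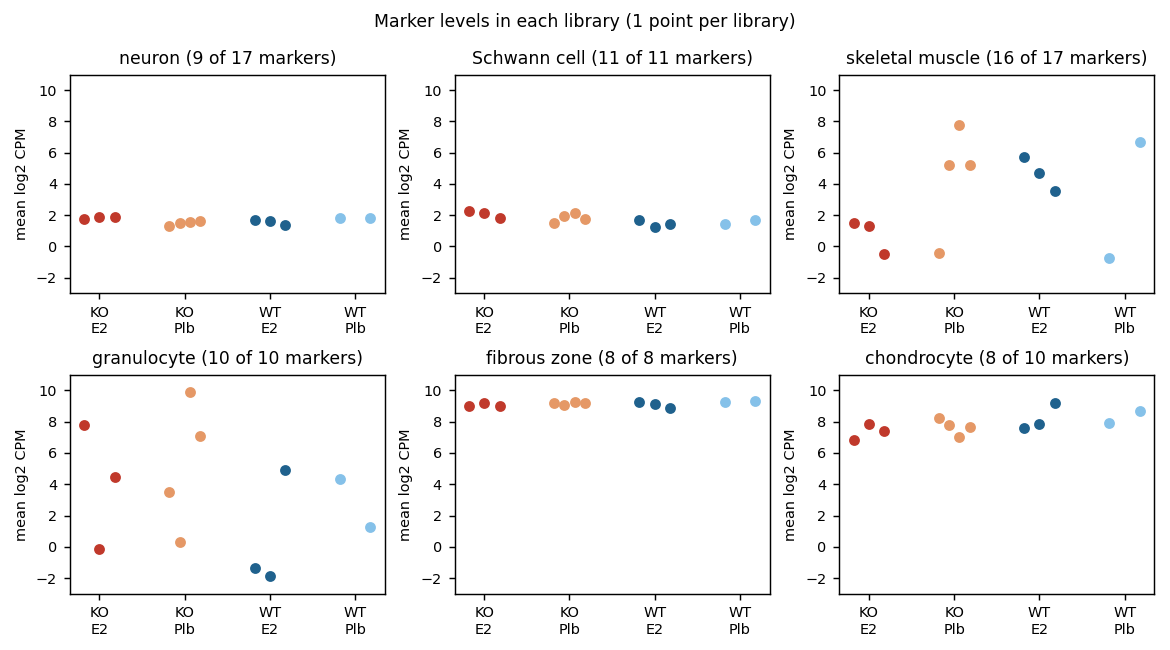
Mean log2 CPM of markers of 6 cell types or zones in each library, 1 point per library, with groups ordered ERalphaKO E2, ERalphaKO placebo, WT E2 and WT placebo. The mean over neuron markers is higher in ERalphaKO E2 (1.73 to 1.91) than in WT E2 (1.35 to 1.70), with single markers going both ways. The mean over Schwann cell markers is higher too (1.83 to 2.24 in ERalphaKO E2 against 1.24 to 1.71 in WT E2). Muscle and granulocyte markers differ widely between libraries of the same group.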

How the data were processed

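RNA from the whole tissue was enriched for polyadenylated transcripts and sequenced, per the labels' protocols. Per the submitters' processing notes, the authors used bcl2fastq 2.17 and TopHat with genome build mm9, and the sources used here do not name the counting tool or strand setting. The authors deposited a table of raw counts per gene symbol, used for all levels and tests, and tables of log2 fold changes, quoted where named. Genes were filtered with edgeR's filterByExpr (minimum count 10), scaled by TMM and fitted with the quasi-likelihood test of edgeR 4.0.16 (R 4.3.3), with 1 mean for each of the 4 groups over all 12 libraries and 8 residual degrees of freedom. P-values were adjusted by Benjamini-Hochberg over the 14832 genes tested in each comparison, with a threshold of 0.05. Standard errors were derived from F, as the size of the log2 fold change over the root of F. Standardized log2 CPM used a prior count of 2. For Lgi2 and Hcn4, ratios of summed counts have exact 95% counting intervals where both groups had counts. For Hcn4 in ERalphaKO E2, which had no count, a floor of 3 counts set the bound. Reads had no molecular identifiers.

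The members and the gene lists were chosen with earlier results of these data known. Named were the 7 genes, list members past the threshold (up to 4 per list by p) or else the 2 with the highest mean CPM, direct paralogues, and the 3 genes nearest to each of the 7 in pattern, predicted genes passed over. The 7 relatives lists covered the LGI family, HCN channels, SHANK scaffolds, whirlin complexes, regulated secretion, the L1 family and the somatostatin system. The 6 broader lists covered voltage-gated channels, synapse, axon guidance and adhesion, neuropeptide receptors, neuron and Schwann cell. DESeq2 1.42.0, other size factors, no filter, only the groups compared, a replicate block and leaving out each library served as alternatives. Scripts were tested on simulated data with known fold changes. No exon of the 7 genes overlaps another gene's in GENCODE M21. Some listed genes are not reported here.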

Additional observations from a re-analysis of the deposited data

Results flagged for a closer look

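ERalphaKO placebo was the only group with 4 libraries. Of 13 sets of values from it that were examined for a library far from the others, 2 had one. The sets share these libraries, so the nominal rate of about 1 in 20 is no measure of chance here. Hcn4 in ERalphaKO placebo stood out because replicate 4, with 2 counts, was the only library of the 4 with any. Its gap to the others was 1 as a share of the range, a value fixed whenever only 1 library has counts. Cadps2 in ERalphaKO placebo stood out because replicate 3, at 9.65 CPM, lay below the other 3 at 14.2 to 15.3 CPM, with a gap of 0.831 of the range on the log2 scale. The same library had the highest muscle and granulocyte marker sums of the series, and whether these bear on its Cadps2 level was not tested.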

How the results depend on the processing

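Over the settings tried, the fitted values of Shank2, Whrn, Cadps2, Chl1 and Sstr2 gave 339 of 340 results that moved by less than the spread between replicates (1 SD) and 1 that moved by more, Cadps2 for E2 in WT at -0.38 with the replicate block. Signs changed for Shank2 (-0.65 to 0.15), Whrn (-0.085 to 0.13) and Chl1 (-0.17 to 0.33) for E2 in ERalphaKO and for Whrn for genotype under placebo (-0.12 to 0.057), all with reported values within 1 standard error of 0. Counts of calls moved more, and the cause was not tested. With DESeq2 the calls among all genes were 247 for E2 in WT, 5 for E2 in ERalphaKO, 150 for genotype under placebo, 497 for genotype under E2 and 102 for the difference of E2 effects, against 68, 0, 2, 163 and 8, and the neuronal lists gave 3, 1 and 15 for E2 in WT, genotype under placebo and genotype under E2, against 0, 0 and 5. Fitting only the groups compared gave 7 for E2 in WT, 0 for genotype under placebo and 66 for genotype under E2, with 0 relatives and 0 neuronal genes there. With the replicate number as a block the calls were 18, 0, 62 and 3 for E2 in WT, genotype under placebo, genotype under E2 and the difference, with 0 relatives and 0 neuronal genes for genotype under E2. Leaving out single libraries gave 1 to 131 calls for E2 in WT (1 without WT placebo replicate 2, 131 without WT E2 replicate 2), 0 for E2 in ERalphaKO, 1 to 4 for genotype under placebo, 51 to 236 for genotype under E2 (51 without ERalphaKO E2 replicate 1) and 0 to 31 for the difference. Relatives then gave 0 to 1 and neuronal lists 0 to 9 calls for genotype under E2, and neuronal lists 0 to 1 for E2 in WT. Of the 7 genes, leaving out single libraries gave 0 to 4 calls for E2 in WT and 5 to 7 for genotype under E2. Fitting only the groups compared left 3 for E2 in WT, without Hcn4, and 5 for genotype under E2, without Chl1 and Sstr2. The replicate block left 2 for E2 in WT (Lgi2 and Whrn), 4 for genotype under E2 (Lgi2, Shank2, Whrn and Cadps2) and 0 for the interaction. Replicate numbers were not taken to pair the libraries, since not every pair with the same number deviated together. A pairing or shared batch need not show in every pair, so this does not settle the question. Over 15 such pairs correlations of deviations ranged from -0.33 to 0.50 with a median of 0.20, against -0.03 over 38 other pairs, 9 were over 0.1, the 6 pairs with number 2 were all positive (0.21 to 0.47), and 6 of 12 libraries correlated best with their own number. With 2 libraries in WT placebo, their deviations are equal and opposite, so correlations with them mirror each other and are not separate evidence. All 6 called list genes lost their calls with the replicate block and when only the groups compared were fitted.

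WT placebo had 2 libraries, so E2 in WT and genotype under placebo rest on both. Lgi2 and Hcn4 had 0 to 6 counts per library outside WT E2, too few to rank those groups. Sox10 and Sstr1 had 6 counts each in WT E2. ERalphaKO E2 replicate 2, with 9696434 counts, had the least depth.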
